A study of Mus musculus with 6 samples.

Results

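Small nuclear RNA (snRNA) genes were examined in RNA sequencing data of D10 cells, a mouse CD4+ helper T cell line grown from 1 clone, as rows of the deposited table that carry the gene type snRNA and that lie above 0 TPM in at least 2 of the 6 libraries. The rule was met by 61 genes of 1000 snRNA rows, among 41079 rows listed. Of the other rows, 870 were at 0 in every library and 69 were above 0 in exactly 1 library. The genes were thus chosen by their detection, the only measured value in the rule, and detection is given here as a description.

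Cold-acclimated T cells were kept at 26°C for 24 h and non-acclimated T cells at 37°C for 24 h, with 3 replicates in each condition and no other difference in genotype or treatment between them in the labels. All 6 libraries were made from poly(A)-selected RNA with a kit that keeps the strand. The labels say that RNA was extracted in separate experimental batches, old and new, which served as the biological replicates, without saying which library belongs to which batch. The values are TPM, a measure of transcript abundance for which counts are taken per base of the gene and each library is brought to 1 common total. Read numbers scaled only by the total of a library are given as RPM.

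The snRNAs are short, abundant, non-coding RNAs of the nucleus. U1, U2, U4, U5 and U6 form the core of the spliceosome, U11, U12, U4atac and U6atac that of the minor spliceosome, and U7 directs the cleavage of replication-dependent histone pre-mRNAs at their 3′ end. RNA polymerase II makes most of them from promoters of their own, and the Integrator complex, rather than the polyadenylation machinery, cuts their 3′ ends. U6 and 7SK, an RNA that holds the elongation kinase P-TEFb in an inactive form, are made by RNA polymerase III and end in a run of uridines. The mature forms carry no poly(A) tail, and the mouse genome holds many copies and pseudogenes of several of them. The libraries measured here therefore hold only the snRNA gene reads that came through poly(A) selection.

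Whole read numbers could be recovered from the TPM of all 130 snRNA rows above 0, because each of these genes is a single exon whose length is known. The libraries held between 16899607 and 31290825 recovered reads, and 1 read on a gene of 107 bases, the length of Rnu6, corresponded to between 0.777 and 1.36 TPM. The 61 genes together held 1216 reads in the 6 libraries, at most 0.0015% of the reads of any library. Their median was 7 reads over all libraries, 13 genes had 20 or more, and 52 had a mean under 5 reads per library. Of the T cell markers, 8 of 10 had a mean of at least 1 TPM, with Cd4, Cd3e and Gata3 among them and Thy1 at 0 in every library. Markers of B cells reached 1 TPM for 0 of 5 genes, those of macrophages for 2 of 5 (Lyz2 and Cd68) and those of erythroid cells for 1 of 5 (Hba-a1, with Hbb-bs and Hbb-bt at 0). Summed erythroid markers lay between 79.9 and 487 TPM in non-acclimated and between 61.3 and 474 TPM in cold-acclimated libraries, and their part in the results was not tested.

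**Figure D1:**
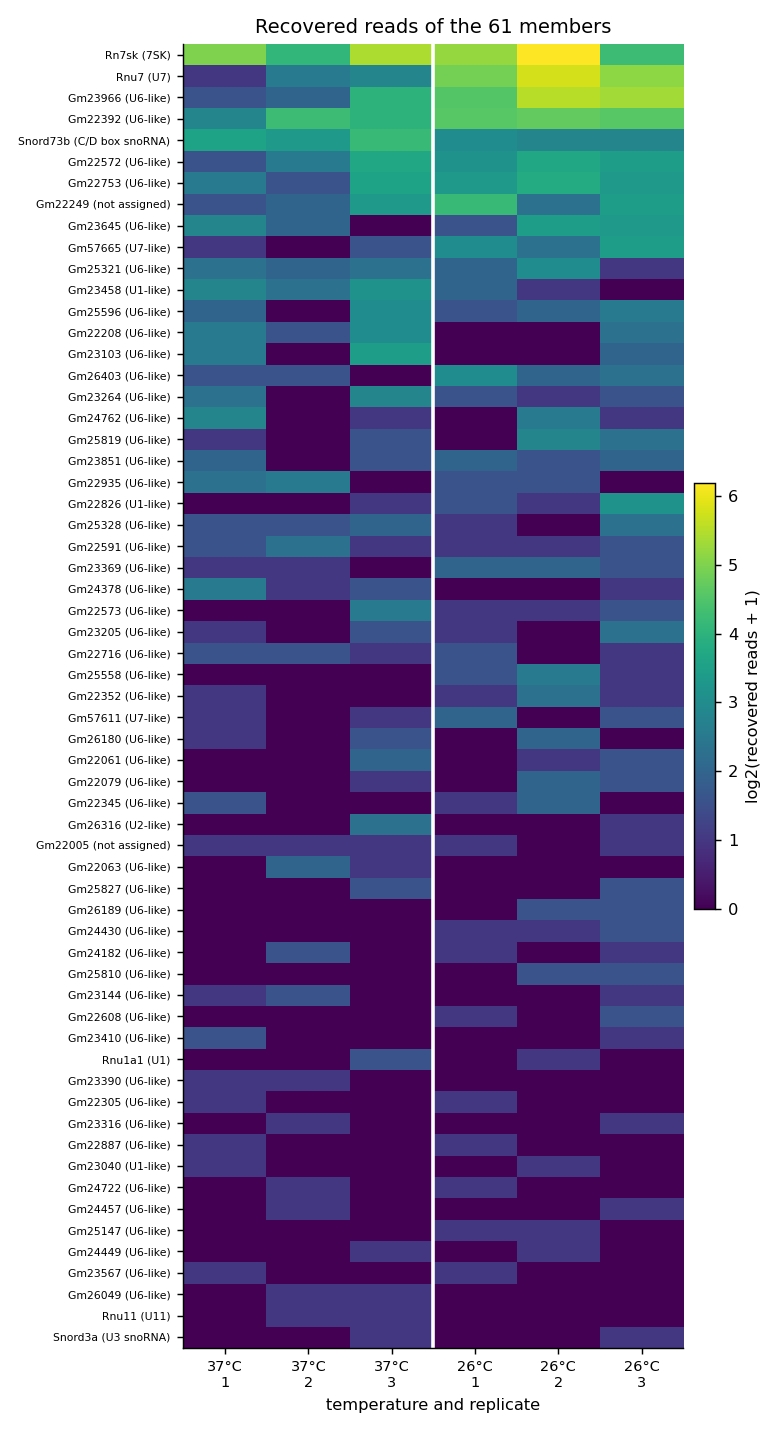
Recovered reads of the 61 snRNA genes (vertical, sorted by total reads, class in brackets) in each of the 6 libraries (horizontal, temperature and replicate), as log2(reads + 1) in colour. The 4 genes at the top, Rn7sk, Rnu7, Gm23966 and Gm22392, held 47.7% of all reads, and most of the genes below them were at 0 in several libraries.

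Most of these genes were copies of U6. Symbols that name a class were carried by Rnu7, Rn7sk, Rnu11 and Rnu1a1, and by Snord3a (the U3 small nucleolar RNA) and Snord73b (a box C/D small nucleolar RNA), which the table also types as snRNA. The remaining genes have symbols without a class, and their genome sequences were aligned end to end to the named genes, with at least 65% identical bases needed for a class. This placed 47 genes as U6-like (69.4% to 100% identity to Rnu6), 3 as U1-like, 2 as U7-like and 1 as U2-like, and left Gm22005 and Gm22249 without a class. No U4 or U6atac sequence was among those aligned to, so these classes could not be assigned.

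The canonical spliceosomal genes were nearly absent. Rnu6, Rnu1b1, Rnu1b2, Rnu1b6 and Rnu2-10 were listed at 0 in all 6 libraries, Rnu12 had 3 reads and Rnu5g 2 reads in a single cold-acclimated library each. Rnu1a1, a gene of U1, had 2 reads in non-acclimated replicate 3 and 1 read in cold-acclimated replicate 2. Rnu11, the U11 gene of the minor spliceosome, had 1 read each in non-acclimated replicates 2 and 3. The sequence of Rnu6 is shared letter for letter by 43 rows of the table, of which only Gm24722 was above 0, with 1 read in 1 library of each condition. Whether reads that fit several places were counted is not given in the sources used here, so copies with identical sequence cannot be compared with the others.

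The genes above 0 lay inside transcribed genes more often than the rows that did not meet the rule, which is given as a description. By the coordinates of the table, 47 of 61 (77.0%) lay within another gene, 27 on its strand and 20 on the opposite strand, against 391 of 939 other snRNA rows (41.6%). The containing genes had a median of 39.3 TPM for the 61 genes and of 0.0932 TPM for the other rows. U6-like sequences made up 77.0% and 70.9% of the 2 sets. A run of at least 8 A within the 60 bases downstream was found for 13.1% and 9.27%.

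At the edge of the rule the values were very low. The 2 highest genes among the 69 rows above 0 in exactly 1 library were Gm22301 with 6 reads (6.48 TPM, cold-acclimated replicate 1) and Gm57692 with 2 reads (4.12 TPM, non-acclimated replicate 2). Among the 21 genes above 0 in exactly 2 libraries they were Gm22063, with 3.41 TPM and 0.777 TPM in non-acclimated replicates 2 and 3, and Gm23410, with 2.73 TPM in non-acclimated replicate 1 and 0.916 TPM in cold-acclimated replicate 3.

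To ask which snRNA genes differed between cold-acclimated and non-acclimated T cells, limma was fitted to log2(TPM + 1) of the 12227 genes with a mean of at least 1 TPM. Of the 61 genes, 34 passed this filter and 27 did not. A gene was called when its Benjamini-Hochberg adjusted p over all genes tested was below 0.05 and its log2 fold change was no nearer to 0 than 1 in either direction. By this test 3 snRNA genes were upregulated in cold-acclimated T cells (Rnu7, Gm23966 and Gm57665) and 0 were downregulated, where 2.63% of all genes tested were called upregulated and 16% downregulated. Gm25558 also passed both thresholds, but it was at 0 in every non-acclimated library and entered the test only through its cold-acclimated values, so no test is given for it. Without adjustment, 7 of the 34 were higher and 4 lower at p below 0.05, beside 948 and 3664 of all 12227 genes tested. Voom on the recovered reads called Rnu7 and Gm23966 upregulated and 0 downregulated, beside 5.46% and 9.89% of all genes. Of the 34, the mean reached 1 TPM only in cold-acclimated T cells for 8 and only in non-acclimated T cells for 3. Genes that entered the test through the condition in which they were high had to differ, so values of these 11 are given without a test, and counts are a description of the 34 and not of all 61.

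The replicate numbers paired the libraries, and with the replicate number as a term in the limma fit 7 snRNA genes passed the thresholds upwards and 2 downwards, beside 3.75% and 21.9% of all genes. The mean reached 1 TPM in both conditions for 4 and 1 of these, which were Gm26403 upwards and Gm22208 downwards in addition to the 3 genes above. The others were Gm25558, Gm22826 and Gm23369 upwards and Gm23458 downwards, each at 1 TPM or more in 1 condition only. As the libraries are bulk samples, fewer cells with a transcript and less of it per cell cannot be told apart.

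**Figure D2:**
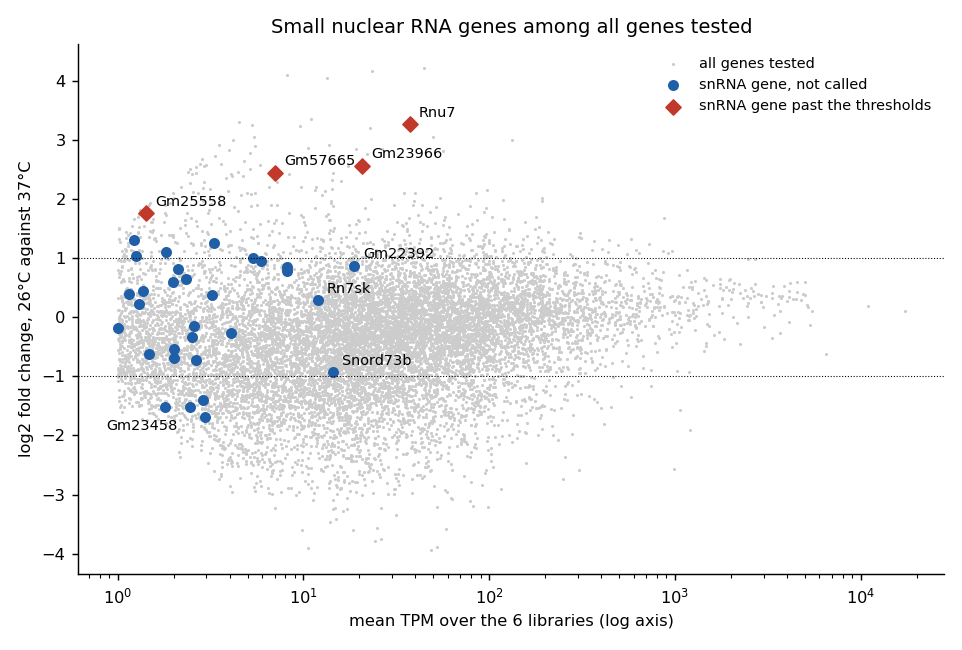
Log2 fold change of cold-acclimated (26°C) against non-acclimated (37°C) T cells (vertical) against mean TPM over 6 libraries (horizontal, log axis) for the 12227 genes tested (grey) and the 34 snRNA genes among them (blue circles, not called; red diamonds, past the thresholds). Dotted lines mark a log2 fold change of 1 in either direction; 4 genes past the thresholds lie above the upper line, with Rnu7 highest at 3.27, and Gm25558 among them entered the test only through its cold-acclimated values.

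On the log2(TPM + 1) scale, U7 had the largest difference of the snRNA genes tested. With a pseudocount of 0.1 its log2 fold change was 3.49, below those of Gm57665 (3.72) and Gm25558 (4.56), so the order depends on the pseudocount. Rnu7 is the gene of U7 snRNA, whose first bases pair with histone pre-mRNA and whose Sm site differs from that of the spliceosomal snRNAs and recruits a ring with the proteins LSM10 and LSM11. It lies on the minus strand of GRCm39 at chr6:124718188-124718249, 62 bases long. Of the other rows, 71 were U7-like, and Gm57665 (chr19:6409404-6409463, minus strand, 60 bases) and Gm57611 (chr13:74073482-74073546, plus strand, 65 bases) were the 2 among them above 0 in at least 2 libraries. The RNA strand of the 3 genes is printed 5′ to 3′ from the genome to show how far the U7-like copies depart from U7, with the Sm site AATTTGTCTAG of U7 in capitals where it occurs:
Rnu7: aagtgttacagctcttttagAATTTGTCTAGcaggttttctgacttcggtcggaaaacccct
Gm57665: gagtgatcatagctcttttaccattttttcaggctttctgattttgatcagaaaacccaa
Gm57611: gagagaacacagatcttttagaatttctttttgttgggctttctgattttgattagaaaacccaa
The motif was searched on the strand of each gene and was found in 1 of the 72 U7 and U7-like rows (1.39%), Rnu7 itself, and in no other snRNA row. Gm57665 was 74.2% and Gm57611 67.7% identical to Rnu7.

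In non-acclimated T cells, Rnu7 had 1, 5 and 6 reads in replicates 1 to 3, or 2.35, 9.81 and 8.04 TPM. In cold-acclimated T cells it had 29, 54 and 34 reads, or 54.1, 96.8 and 53.7 TPM. The 3 cold-acclimated libraries lay far above the 3 non-acclimated ones, with no overlap. Means were 6.74 ± 3.90 and 68.2 ± 24.8 TPM (SD, n = 3 each), and limma put the log2 fold change at 3.27 (SE 0.48, adjusted p = 0.00838). Summed over the libraries of a condition, RPM was 10.4 times as high in cold-acclimated T cells, with a 95% exact interval of 5.73 to 20.7 that covers counting error only. Rnu7 was the only snRNA gene called in every one of the alternatives tried, including those that left out 1 library.

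Neither neighbour of Rnu7 was called. By the coordinates of the table, Rnu7 lies 155 bases upstream of the start of Grcc10 and 1257 bases beyond the end of Atn1, all on the minus strand. In the GENCODE vM39 annotation it overlaps an exon of Grcc10. Grcc10 had 253, 135 and 98.6 TPM in non-acclimated and 249, 253 and 138 TPM in cold-acclimated replicates, overlapping ranges with a log2 fold change of 0.45 (SE 0.40, limma adjusted p = 0.455). Atn1, which encodes the transcriptional corepressor atrophin 1, had 181, 193 and 147 TPM against 110, 101 and 82.3 TPM, a log2 fold change of -0.82 (SE 0.23, limma adjusted p = 0.0414). The table gives 1 value per gene, so where the Rnu7 reads lie within or around the 62 bases is not known.

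The U7-like gene Gm57665 had 1, 0 and 2 reads in non-acclimated and 7, 4 and 10 reads in cold-acclimated replicates, or 2.43, 0 and 2.77 against 13.5, 7.41 and 16.3 TPM. The 3 cold-acclimated libraries lay above all 3 non-acclimated ones. The log2 fold change was 2.45 (SE 0.56, limma adjusted p = 0.0235), and the ratio of RPM was 7.46 (95% exact interval 2.23 to 39.1). The call was lost without non-acclimated replicate 1 or 2 or cold-acclimated replicate 1 or 2 (adjusted p = 0.0583, 0.0576, 0.0859 and 0.0543), with a log2 fold change between 1.83 and 2.75. It was also lost with a pseudocount of 0.1, without the filter and with voom (adjusted p = 0.0690, 0.0702 and 0.0512). Gm57665 lies in an intron of Gm14966 on the same strand, which had a log2 fold change of 0.42 (limma adjusted p = 0.393). Gm57611 lies in an intron of Trip13 on the opposite strand and had 1, 0 and 1 reads against 3, 0 and 2, so its conditions overlapped and it was not called (log2 fold change 0.59, SE 0.74, limma adjusted p = 0.600).

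**Figure D3:**
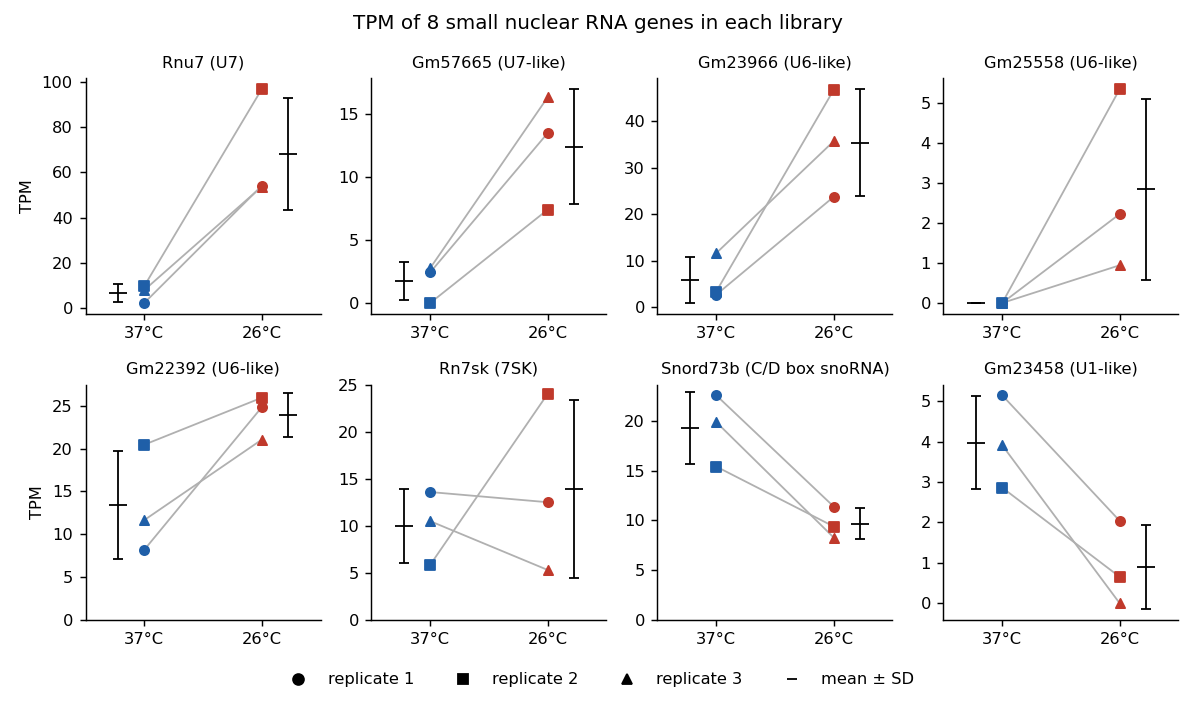
TPM of 8 snRNA genes (vertical, one panel per gene, scales differ) in non-acclimated (37°C, blue) and cold-acclimated (26°C, red) libraries, with grey lines joining the libraries of the same replicate number and black bars for mean ± SD of 3 libraries. The top row holds the called genes Rnu7 (6.74 to 68.2 TPM), Gm57665 and Gm23966, and Gm25558 (0 to 2.84 TPM), which has no test; Rn7sk was higher at 26°C in replicate 2 and lower in replicates 1 and 3.

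U6-like genes made up most of the genes tested. U6 is the catalytic snRNA of the spliceosome and pairs with the 5′ splice site of the intron. Of 47 U6-like genes, 26 were tested. Of these, Gm23966 was called upregulated and Gm25558 passed the thresholds only through its cold-acclimated values, beside 2.63% of all genes. The mean was higher in cold-acclimated T cells for 25 of the 47. The identity to Rnu6 was 94.4% and 72.9% for Gm23966 and Gm25558, and 97.2% for Gm22392, the other U6-like gene with over 100 reads.

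Gm23966 had 2, 3 and 15 reads in non-acclimated and 22, 45 and 39 reads in cold-acclimated replicates. In TPM these were 2.73, 3.41 and 11.7 against 23.8, 46.7 and 35.7, with no overlap between the conditions. Non-acclimated replicate 3 stood above the other non-acclimated libraries and below every cold-acclimated one. With means of 5.93 ± 4.97 and 35.4 ± 11.5 TPM (SD, n = 3 each), limma gave a log2 fold change of 2.57 (SE 0.50, adjusted p = 0.0157). This call was lost without non-acclimated replicate 1, non-acclimated replicate 2 or cold-acclimated replicate 2 (adjusted p = 0.0593, 0.0663 and 0.0623), with a log2 fold change of 2.23, 2.36 and 2.35. Gm23966 lies in an intron of Orc2, a subunit of the origin recognition complex, on the same strand, and Orc2 had 56.4, 77.8 and 86.2 TPM against 47.5, 52.2 and 82.0 TPM (log2 fold change -0.29, limma adjusted p = 0.505).

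Gm25558 was at 0 in all 3 non-acclimated libraries and had 2, 5 and 1 reads in the cold-acclimated ones, or 2.22, 5.34 and 0.942 TPM. Taken against 3 reads over the whole non-acclimated condition, the limit that a count of 0 allows, its RPM was 2.84 times as high in cold-acclimated T cells. The counting error of the 8 cold-acclimated reads is not included, so this ratio is not a lower limit of the difference. Ppp2r1b, a scaffold subunit of protein phosphatase 2A whose intron contains Gm25558 on the same strand, had a log2 fold change of -0.77 (limma adjusted p = 0.0675).

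Gm22392 had 6, 18 and 15 reads in non-acclimated and 23, 25 and 23 reads in cold-acclimated replicates. The conditions did not overlap, with 8.18, 20.5 and 11.7 TPM against 24.8, 26.0 and 21.1 TPM, but cold-acclimated replicate 3 lay close to non-acclimated replicate 2. Gm22392 was not called (log2 fold change 0.87, SE 0.34, limma adjusted p = 0.104). It passed with a median of ratios scaling between libraries (log2 fold change 1.25, limma adjusted p = 0.0411). It overlaps an exon of Eny2 on the same strand, a gene of the TREX-2 and SAGA complexes, and Eny2 had a log2 fold change of 0.22 (limma adjusted p = 0.682).

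The other U6-like genes among the 10 with the most reads were Gm22572, Gm22753 and Gm23645. Gm22572 had 2, 5 and 12 reads against 8, 12 and 10, Gm22753 had 5, 2 and 11 against 9, 13 and 9, and Gm23645 had 6, 3 and 0 against 2, 10 and 9. In each of them the conditions overlapped, and the limma adjusted p was 0.195, 0.198 and 0.420 for log2 fold changes of 0.79, 0.85 and 1.01. Gm22249, which could not be placed in a class, had 2, 3 and 9 reads against 17, 4 and 10 and was not called either (log2 fold change 0.95, limma adjusted p = 0.220). It overlaps an exon of the actin regulator gene Wdr1 on the opposite strand.

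The U6-like genes Gm23369 and Gm26403 had 10 and 18 reads in all. Gm23369 had 1, 1 and 0 reads against 3, 3 and 2, with a mean of 0.849 TPM in non-acclimated and 2.78 TPM in cold-acclimated T cells. Gm26403 was called only with the replicate number as a term and had 2, 2 and 0 reads against 7, 3 and 4 (log2 fold change 1.26, limma adjusted p = 0.0443 with the term and 0.147 without it). The U6-like gene Gm22208 went the other way, with 5, 2 and 7 reads against 0, 0 and 4 (log2 fold change -1.69, limma adjusted p = 0.0307 with the term and 0.101 without it). The conditions overlapped for Gm22208 and did not for the other two.

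Rn7sk, the gene of 7SK RNA at chr9:78082584-78082915 on the minus strand, had the most reads of the 61 genes. It held 31, 16 and 42 reads in non-acclimated and 36, 72 and 18 reads in cold-acclimated replicates, or 13.6, 5.86 and 10.5 against 12.5, 24.1 and 5.31 TPM. Cold-acclimated replicate 2 was the highest of all libraries and cold-acclimated replicate 3 the lowest, so the conditions overlapped. The ratio of the means was 1.40, with SDs of 3.90 TPM at 37°C and 9.47 TPM at 26°C, and the log2 fold change was 0.30 (SE 0.53, limma adjusted p = 0.725). Its sign rests on 2 libraries, with a log2 fold change of -0.0091 without non-acclimated replicate 2 and of -0.18 without cold-acclimated replicate 2.

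Of the 3 U1-like genes, Gm23458 and Gm22826 were tested. U1 recognises the 5′ splice site and also shields nascent transcripts from premature polyadenylation. Gm23458 (73.5% identity to a U1 gene) had 6, 4 and 8 reads in non-acclimated and 3, 1 and 0 reads in cold-acclimated replicates, with no overlap in TPM. Its means were 3.97 and 0.898 TPM, so it passed the filter through its non-acclimated values. Bcl7a, a chromatin remodelling gene whose intron contains Gm23458 on the same strand, fell from 25.3 ± 4.86 to 9.56 ± 3.10 TPM (SD, n = 3 each; log2 fold change -1.34, limma adjusted p = 0.0240). Gm22826 had 0, 0 and 1 reads against 2, 1 and 8, with means of 0.168 and 2.27 TPM, and passed the filter through its cold-acclimated values. The difference of Gm22826 rested mainly on cold-acclimated replicate 3.

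Snord73b, a box C/D small nucleolar RNA in an intron of the ribosomal protein gene Rps3a1, was the only gene of the 61 whose level was lower at an adjusted p below 0.05 without the replicate term. It had 11, 9 and 17 reads in non-acclimated and 7, 6 and 6 reads in cold-acclimated replicates. The level was 22.6, 15.4 and 19.9 TPM against 11.4, 9.39 and 8.28 TPM, with no overlap. Its log2 fold change of -0.92 (SE 0.26, limma adjusted p = 0.0435) did not reach the size needed for a call, and with median of ratios scaling it was -0.55 (adjusted p = 0.197). Rps3a1 itself had a log2 fold change of 0.33 (limma adjusted p = 0.477).

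Over the 34 snRNA genes tested, the median log2 fold change was 0.43 beside -0.34 over all genes tested, 0.76 higher. Without the filter on low values, over all 61, the distance was 0.12. The median of the 34 was also 0.43 with Gm25558 set at its ratio to 3 non-acclimated reads, and Gm25558 lay above the median either way. Median of ratios scaling moved the median of all genes to 0.02, with 6.56% of genes called upregulated and 8.79% downregulated, and left the snRNA genes 0.62 above it. The distance varied between replicates, with 0.07, 1.42 and 0.46 for replicates 1, 2 and 3. In 8 of the 34 genes all cold-acclimated libraries lay above all non-acclimated ones and in 3 all lay below, where 9.69% and 31.4% of all genes tested did so. Of these, Gm25558, Gm22826 and Gm23369 above and Gm23458 and Gm24378 below entered the test only through the condition in which they were high. The medians rest on the same 34, of which 8 reached a mean of 1 TPM only in cold-acclimated and 3 only in non-acclimated T cells. These values are therefore a description. A higher mean in cold-acclimated T cells was found for 32 of the 61 genes (52.5%), against 35% of the 18461 genes above 0 in at least 2 libraries.

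Summed over the 61 genes, the level was 165, 113 and 148 TPM in non-acclimated and 229, 316 and 242 TPM in cold-acclimated replicates. The sums did not overlap, with means of 142 ± 26.6 and 262 ± 47.1 TPM (SD, n = 3 each), a ratio of 1.84, given without a test. Rnu7 carried much of it, as the ratio was 1.43 without Rnu7 and 1.22 without Rnu7 and Gm23966. Without both genes the sums overlapped between the conditions, and in replicate 1 the cold-acclimated sum was the lower. Counted as reads, the genes held 8.11, 4.85 and 6.78 RPM in non-acclimated and 10.7, 15.0 and 9.73 in cold-acclimated replicates. The ratio was 1.31, 3.10 and 1.44 for replicates 1, 2 and 3, so that replicate 2 had the largest. In each library, between 29 and 45 of the 61 genes were above 0.

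**Figure D4:**
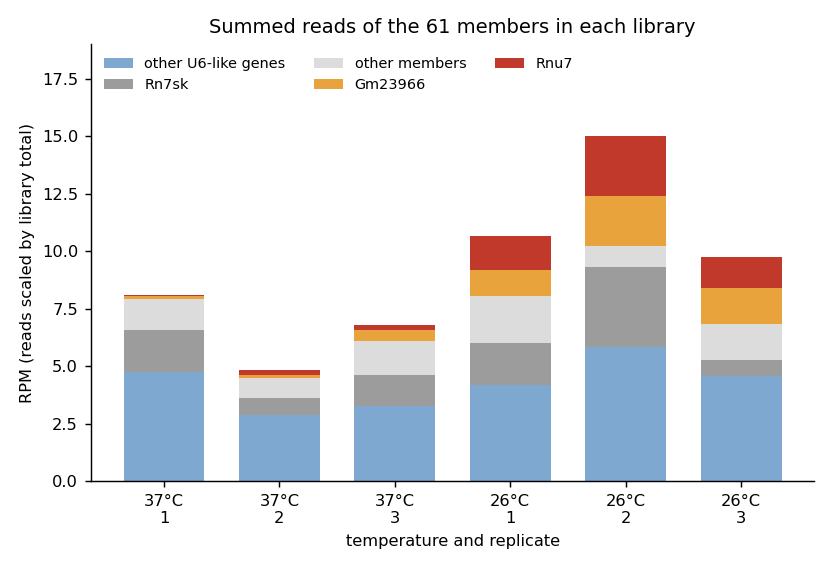
Summed RPM (reads scaled by library total) of the 61 snRNA genes (vertical, from 0) in each library (horizontal, temperature and replicate), stacked as U6-like genes other than Gm23966, Rn7sk, other members, Gm23966 and Rnu7. The cold-acclimated bars reach 10.7, 15.0 and 9.73 against 8.11, 4.85 and 6.78 in non-acclimated T cells, and the segments of Rnu7 and Gm23966 are wider in each cold-acclimated library.

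Position relative to other genes was compared within the 61. Genes on the strand of the gene that contains them had 16 tested members, with Gm23966, Gm57665 and Gm25558 past the thresholds and a median log2 fold change of 0.55. Those on the opposite strand had 12 tested members, with 0 called by limma and a median of 0.62. At an unadjusted p below 0.05 there were also 0 of the 12, beside 948 higher and 3664 lower of all 12227 genes tested. The 6 tested genes outside other genes by the coordinates of the table had 1 called, Rnu7, which GENCODE vM39 places on an exon of Grcc10, and a median of -0.44. The 48 containing genes had 46 tested, of which 2 were called upregulated and 10 downregulated (4.35% and 21.7%, beside 2.63% and 16% of all genes), with a median log2 fold change of -0.41. Genes typed as small nucleolar RNA in the same table had 200 tested, 30 called upregulated and 2 downregulated (15% and 1%, beside the same 2.63% and 16%), with a median log2 fold change of 0.82. Voom called 14 and 0 of them, beside 5.46% and 9.89% of all genes.

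Proteins that make, carry and use snRNAs were taken from 13 lists with 170 tested genes. In these, 6 genes were called upregulated and 17 downregulated (3.53% and 10%, beside 2.63% and 16% of all genes), with a median log2 fold change of -0.19, 0.14 above that of all genes. Zfp473, among the 17, passed the filter only through its non-acclimated values. Median of ratios scaling gave 16 and 12 calls, beside 6.56% and 8.79% of all genes, and the replicate term 7 and 23, beside 3.75% and 21.9%. Of the 23 called genes, 5 (Gemin4, Ice2, Ints3, Mettl4 and Nabp1) were called in each of the 6 fits that left out 1 library. The call held in only 1 of these fits for Cpsf2, Dis3, Ints11, Lsm10, Lsm11, Mepce, Nop58 and Zfp143, and without the filter on low values 14 of the 23 were called. Which direction held more calls thus depended on how the libraries were scaled. The median of the lists stayed above that of all genes, at 0.20 beside 0.02 with median of ratios scaling and 0.16 beside -0.03 with voom.

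Of 9 tested genes of the U7 particle and of histone pre-mRNA processing, limma put 4 past the thresholds downwards (44.4%, beside 16% of all genes) and 0 upwards, with a median log2 fold change of -1.13. Lsm10, Lsm11 and Cpsf2 were called. Zfp473 entered the test only through its non-acclimated values, so the counts of this list, which include it, are a description. With the replicate term 6 were called downregulated, beside 21.9% of all genes, with Slbp (-1.24) and Casp8ap2 (-1.13) in addition. At an unadjusted p below 0.05, 6 were lower and 0 higher, beside 3664 and 948 of all 12227 genes tested. Lsm10, which encodes a subunit of the Sm ring found only in U7, fell from 34.2 ± 5.61 to 14.6 ± 4.08 TPM (log2 fold change -1.19, limma adjusted p = 0.0250). Its partner Lsm11 fell from 12.2 ± 2.76 to 5.36 ± 1.47 TPM (log2 fold change -1.06, limma adjusted p = 0.0451). Cpsf2, a subunit of the complex that cleaves histone pre-mRNA, fell from 46.9 ± 14.9 to 13.8 ± 7.54 TPM (log2 fold change -1.76, limma adjusted p = 0.0239). Zfp473, a zinc finger protein of the U7 particle and the last of the 4, had 2.92 ± 1.25 against 0.372 ± 0.277 TPM and passed the filter through its non-acclimated values, so no test is given for it. With median of ratios scaling Lsm10 and Lsm11 were no longer called (log2 fold change -0.81 and -0.71). This left Cpsf2 and, without a test of its own, Zfp473 past the thresholds, beside 8.79% of all genes. The Cpsf2 call was lost without the filter (adjusted p = 0.0587) and without each library but cold-acclimated replicate 3 (adjusted p between 0.0541 and 0.0888). The Lsm10 call was lost without any 1 of the non-acclimated libraries or cold-acclimated replicate 1 or 2 (adjusted p between 0.0561 and 0.0908). Lsm11, Zfp473, Slbp and Casp8ap2 were chosen after their values were seen, as members of these counts.

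The list of the Integrator complex, which cuts nascent snRNAs, also held proteins that join it, such as Nabp1. It had 5 of 18 tested genes called downregulated (27.8%, beside 16% of all genes) and 0 upregulated by limma. The median log2 fold change was -0.84. Without adjustment, 9 were lower and 1 higher at p below 0.05, beside 3664 and 948 of all 12227 genes tested. Nabp1, a single-strand DNA binding protein that joins INTS3, fell from 26.8 ± 11.5 to 3.03 ± 1.83 TPM (log2 fold change -2.84, limma adjusted p = 0.0102). Ints3 fell from 75.1 ± 8.81 to 12.2 ± 8.86 TPM (log2 fold change -2.72, limma adjusted p = 0.00946). The other 3, named after their values were seen, were Ints4, Ints10 and the catalytic subunit gene Ints11, with log2 fold changes of -1.64, -1.33 and -1.13. Ints11 was not called with median of ratios scaling (limma adjusted p = 0.0800).

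The factors of snRNA promoters and of snRNP assembly held genes called in both directions. Among 14 tested promoter factors, Ell (log2 fold change 1.05) and Ice1 (1.02) rose and Ice2 (-1.98) fell, all 3 parts of the little elongation complex of snRNA genes. The promoter activator gene Zfp143 also fell (-1.46, limma adjusted p = 0.0458, and 0.0873 with median of ratios scaling). These calls were 14.3% upwards and 14.3% downwards of the 14, beside 2.63% and 16% of all genes. The SMN complex, which loads Sm rings onto snRNAs, and the methylosome had 12 tested genes. Of these, Smn1 (1.21) and Strap (1.17) rose and Gemin4 (-2.47), Gemin6 (-2.38) and Gemin8 (-2.04) fell. These were 16.7% and 25% of the 12, beside the same 2.63% and 16%. Ell, Ice1, Smn1 and Strap were called in 2 of the 6 fits that left out 1 library, Gemin8 in 3 and Gemin6 in 4. The Smn1 call was lost without the filter (limma adjusted p = 0.0540). Ice1, Zfp143, Smn1, Strap and Gemin8 were named after their values were seen.

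Calls in the other lists are set beside 2.63% of all genes called upregulated and 16% called downregulated. None of 7 tested genes of the Sm core, of 7 of the LSm ring of U6, of 24 of the U1 and U2 particles, of 12 of the minor spliceosome and of 9 of snRNA export, cap and import was called by limma. At an unadjusted p below 0.05 they had 1, 0, 2, 2 and 0 higher and 0, 2, 1, 2 and 2 lower genes, in this order. Of all 12227 genes tested, 948 were higher and 3664 lower at this level. Voom called 2 genes upregulated in each of the third and the fourth, beside 5.46% of all genes. With the replicate term, Lsm2 of the LSm ring (log2 fold change -1.48, limma adjusted p = 0.00801) and, in export and cap binding, Ncbp2 (-1.43, adjusted p = 0.0101) and Xpo1 (-1.11, adjusted p = 0.0250) were called downregulated. Rnpc3 of the minor spliceosome, named after its value was seen, was called upregulated with this term (1.05, limma adjusted p = 0.0173). With the same term, 3.75% of all genes were called upregulated and 21.9% downregulated. The median log2 fold change of the Sm core was 0.38, with Snrpd1 at 300 ± 32.5 and 431 ± 56.8 TPM (log2 fold change 0.52, limma adjusted p = 0.128). Prpf6, which bridges U5 to U4/U6, fell from 69.2 ± 4.33 to 16.9 ± 10.3 TPM (log2 fold change -2.12, limma adjusted p = 0.0142), as the only call of 18 genes of the U4/U6.U5 particle. Mettl4, the methyltransferase of U2 (log2 fold change -1.75), fell and Nop58 (1.01), a core protein of box C/D RNAs, rose among 14 genes of the Cajal body and snRNA modification. Mepce, which caps 7SK, fell (log2 fold change -1.31, limma adjusted p = 0.0380) as the only call of 7 genes of the 7SK particle, and was not called with median of ratios scaling (adjusted p = 0.0816). Dis3, a nuclease of the exosome, rose (log2 fold change 1.53, limma adjusted p = 0.0324) as the only call of 19 genes of nuclear tailing and decay. The Dis3 call was lost without the filter (adjusted p = 0.0738) and without each library but non-acclimated replicate 3 (adjusted p between 0.0505 and 0.104). Those of Mepce and Nop58 were also lost without the filter (adjusted p = 0.0772 and 0.0703). As shares of their lists, Prpf6 was 5.56% and Mepce 14.3% downwards, and Dis3 5.26% upwards. Mettl4 and Nop58 were 7.14% each of theirs.

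**Figure D5:**
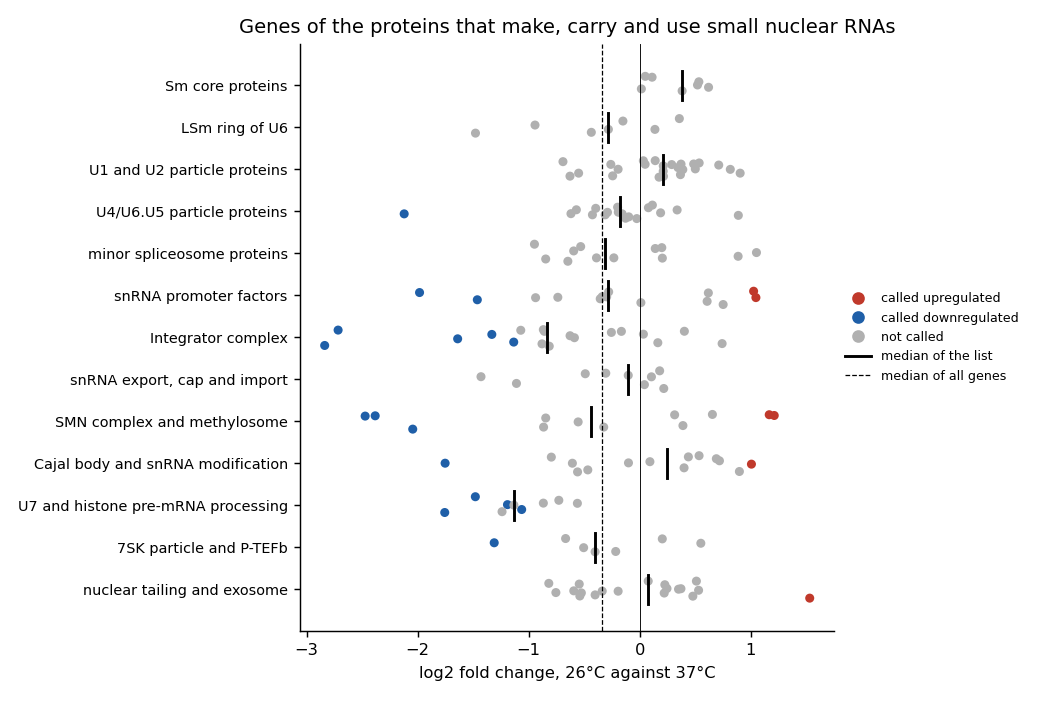
Log2 fold change (horizontal) of each tested gene of 13 lists of proteins that make, carry and use snRNAs (vertical), with called genes in red (upregulated) or blue (downregulated), short black bars for the list medians and a dashed line for the median of all genes, -0.34. The lists of U7 and histone pre-mRNA processing (-1.13) and of the Integrator complex (-0.84) have the lowest medians.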

How the data were processed

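Poly(A)+ RNA of D10 T cells was sequenced by the study in 6 libraries, 3 per condition. According to the submitters' processing notes, reads were checked with FastQC 0.11.7, trimmed with Trimmomatic 0.38, aligned to GRCm39 with HISAT2 2.1.0 and counted with featureCounts 1.6.3; the sources used here do not give the annotation release, the strand setting or the treatment of reads with several places. The deposited values are TPM, which the authors made from these counts.

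Read numbers were recovered from the TPM as whole multiples of 1 read per gene length, with all 130 snRNA rows above 0 and 99.99% of 21195 genes whole within 0.0001 reads. For genes other than snRNA rows the length was not known, and the smallest that made all their reads whole was taken. Wholeness was thus sought for these genes, and their reads and the library totals can be too low. The recovered reads served as depth, for exact intervals (95%, counting error only) and for an alternative test. limma 3.58.1 in R 4.3.3 (eBayes with trend, no replicate term, since the study's methods name none) was run on log2(TPM + 1) for the 12227 genes with mean TPM of at least 1; fold changes on this scale understate changes of low genes. Limma's p measure the spread between these libraries. Sequences were read from the GRCm39 genome (those of the U6-like genes are not reported here), and 59 of 61 genes matched GENCODE vM39 by identifier or symbol at an overlapping position. Python 3.11.15, numpy 2.4.6, pandas 2.3.3, scipy 1.17.1, biopython 1.88 and matplotlib 3.10.9 were used, and the fits and the read recovery were tested on simulated data.

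Deviations from the condition means correlated at 0.48, 0.50 and 0.51 between libraries of the same replicate number and between -0.41 and 0.02 otherwise, so the numbers pair the libraries. Named genes were those with a class in the symbol, those called, the 10 highest by TPM and by reads, the 2 smallest p of each list, the genes containing them and the 2 highest at the edge of the rule. The genes, lists and alternatives (pseudocount of 0.1, no filter, mean TPM of at least 5, median of ratios scaling, a replicate block, voom on recovered reads, leaving out each library) were chosen with earlier results of these data known. Lists were described by counts and medians, with no set test.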

Additional observations from a re-analysis of the deposited data

How the results depend on the processing

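Of the alternatives, the fit with a replicate block put 7 snRNA genes past the thresholds upwards and 2 downwards (beside 3.75% and 21.9% of all genes). Without it these were 4 and 0 (beside 2.63% and 16%). Voom on recovered reads called 2 upregulated (Rnu7 and Gm23966, beside 5.46% of all genes). Leaving out 1 library at a time gave between 1 and 4 upregulated and between 0 and 1 downregulated. A replicate block with median of ratios scaling, chosen after seeing the data, gave 9 and 1. For the machinery, median of ratios scaling gave 16 upregulated (beside 6.56% of all genes) and voom 16 upregulated (beside 5.46%). No filter on low values gave 3 and 11 calls and the block with median of ratios scaling 19 upregulated. Leaving out 1 library gave between 0 and 8 upregulated and between 5 and 34 downregulated, the highest without cold-acclimated replicate 3. The share of all genes called is not given here for the fits without a filter, with 1 library left out or with a block and median of ratios scaling. Counts from those fits therefore do not set these lists apart from other genes. Rn7sk changed sign without non-acclimated replicate 2 (-0.0091) and without cold-acclimated replicate 2 (-0.18), in a range up to 0.81 without cold-acclimated replicate 3. The cause of these changes was not tested. The median of the snRNA genes stayed above that of all genes in every alternative, between 0.12 without a filter and 1.29 with a pseudocount of 0.1, and the ratio of summed levels lay between 1.22 and 2.44. Of 153 values of 12 named snRNA genes, 130 kept their direction and their side of the threshold, 16 lost the call and 5 gained it. Of 338 values of 26 named machinery genes, 271 kept both, 44 lost the call and 23 gained it. The 61 genes had a median of 7 reads over the 6 libraries, and the smallest difference detectable at this depth was not computed.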
